A study of Mus musculus with 6 samples.

Results

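The genes of the Notch pathway were read in LSK cells, the fraction of bone marrow that is negative for lineage markers, positive for Sca1 and c-Kit, and holds haematopoietic stem cells and multipotent progenitors. A list of 39 genes was used, made up of receptors, ligands, enzymes that modify or cut the receptors, nuclear partners, regulators of turnover and target genes, and 38 of them could be read among the 18193 genes of the array. Maml3 had no probe set of its own here, so its level was not read and only its upstream sequence was searched. The groups were 3 samples from mice homozygous for the IkL allele (IkL/L mutant) and 3 samples from wild type (WT) mice. IkL is a hypomorphic mutation of Ikzf1, which encodes the transcription factor Ikaros, which lowers functional Ikaros and is carried by all cells of the mouse, not by LSK cells alone. All mice were C57BL/6 and 6 to 7 weeks old. Each IkL/L sample came from 2 pooled mice and each WT sample from 1 mouse. The comparison asks whether the Notch machinery and its read-outs differ in progenitors before T-cell development begins when Ikaros is scarce.

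Notch receptors are membrane proteins that are activated by ligands on a neighbouring cell. Ligand binding exposes the receptor to a metalloproteinase and then to gamma-secretase, and the intracellular part that is set free enters the nucleus, where it binds the DNA-binding protein RBPJ and a Mastermind coactivator and turns on genes such as Hes1. In the blood system the pathway is best known for directing progenitors to the T-cell fate in the thymus. RBPJ and Ikaros recognise DNA with a common core, GGGAA.

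The values are log2 values from Affymetrix arrays, made by the authors with RMA, which has no detection call. A level below the array medians (4.79 to 4.88) is called dim here and cannot be told from background, and levels of different genes were otherwise not compared. The arrays correlated at 0.986 to 0.995, and WT 2 lay apart from the others on the first principal component (-52.7, against -18.6 and 3.6 for WT 1 and 3 and 19.6 to 28.0 for the IkL/L arrays), which held 39.3% of the variance. Nothing in the labels says that samples of a group came from separate sorts, so that p-values measure the spread between these samples. The targeted gene, Ikzf1, stood at 10.77, 10.85 and 10.93 on the IkL/L arrays 1, 2 and 3, against 11.57, 11.59 and 11.44 on the WT arrays, by its brighter probe set (adjusted p = 0.0307 in limma). Its dimmer probe set was lower by a smaller step, without overlap, and was not called (-0.21, adjusted p = 0.622). The call of the brighter one held without WT 3 and was lost without any other array, with adjusted p from 0.0436 to 0.157. Where this probe set lies relative to the mutation was not analysed, so it does not check the labels.

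No Notch pathway gene passed the test between IkL/L and WT LSK cells. In limma, with p-values adjusted over all 45037 probe sets of the array by Benjamini-Hochberg, 0 of 38 members were called in either direction. Of all genes 0.989% were called, 0.748% higher and 0.242% lower. The unadjusted p was under 0.05 in 6 members (15.8%), against 11.2% of all genes. The 2 higher ones were Psen2 and Dtx4, and the 4 lower ones were Notch1, Jag2, Lfng and Hes5. Shares over all genes were 5.83% higher and 5.35% lower. The smallest adjusted p was 0.114, for Hes5. The values of the groups did not overlap in 9 members (23.7%), 3 higher and 6 lower, against 17.2% of all genes (7.62% higher and 9.59% lower), and 23.7% and 15.8% both lay near these backgrounds.

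The differences were small as well as uncalled. The median over the 38 members of the log2 difference between IkL/L and WT cells (IkL/L minus WT) was -0.05, with quartiles of -0.10 and 0.03, against a median of -0.02 and quartiles of -0.12 and 0.09 over all genes. It was -0.015 without WT 2 and -0.108 without WT 3. In 31 members the difference was under 0.25 on the log2 scale in size. Of the 29 members that were not dim, 22 had a difference under 0.25 in size. The median over these 29 was -0.081. The 95% interval lay between -0.5 and 0.5 in 30 members and between -1 and 1 in 37, the exception being Dtx4 with an upper bound of 1.07. In 9 members both groups were dim, among them 2 of the 4 receptors and 4 of the 5 ligands, and a change of such a gene can be missed. In sorted cells read in bulk, fewer cells that use a gene and less of its RNA per cell cannot be told apart.

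**Figure D1:**
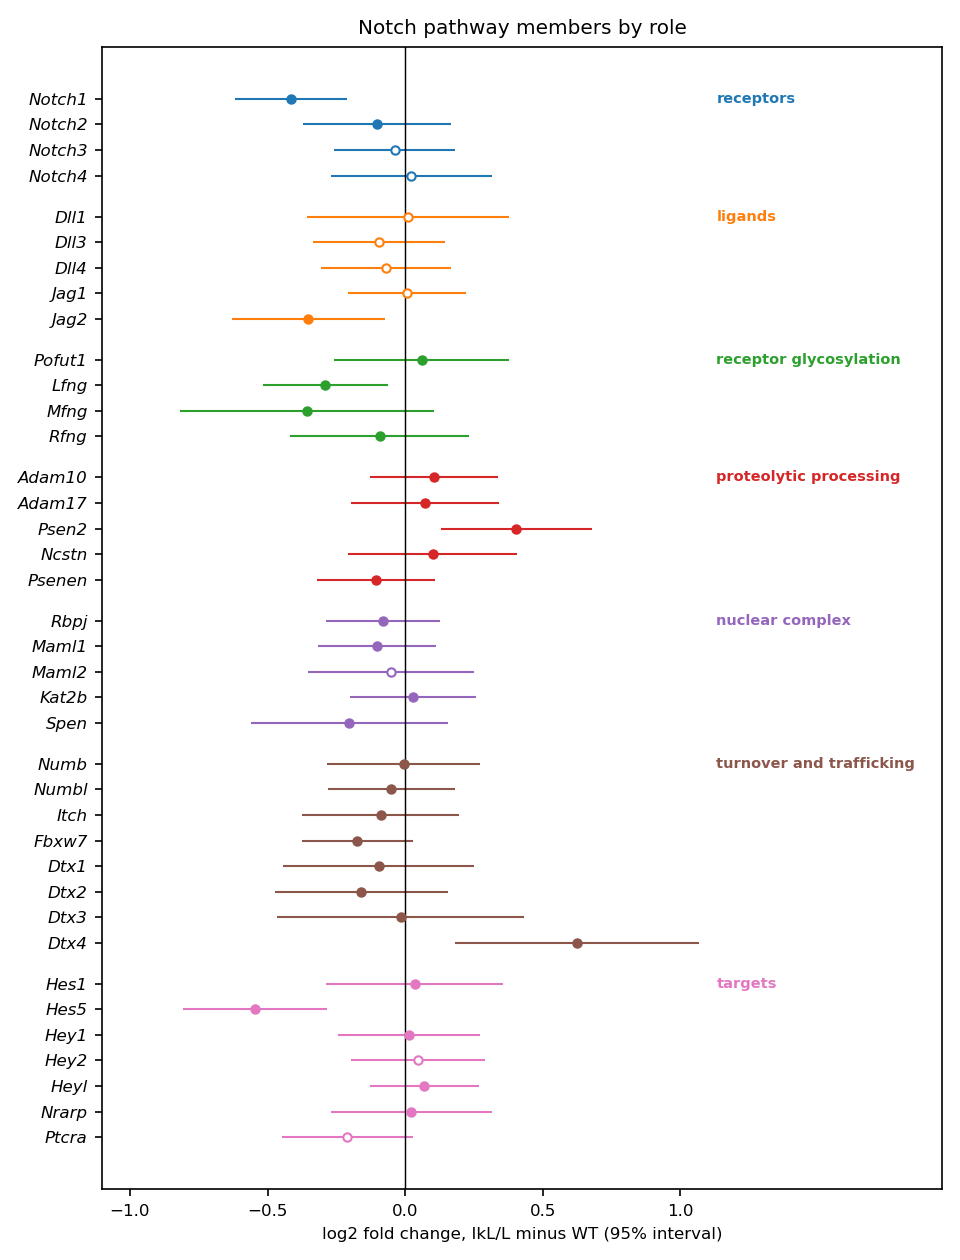
Difference in log2 level between IkL/L and WT cells, as IkL/L minus WT, on the horizontal axis, for 38 Notch pathway genes grouped and coloured by role (vertical axis), with bars for the 95% interval from limma, 3 arrays per group. Open circles are genes that were dim in both groups. The intervals of Notch1, Jag2, Lfng, Psen2, Dtx4 and Hes5 leave out 0, and no gene passed the adjusted threshold.

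Of the receptors, Notch1 and Notch2 stood well above the array medians and Notch3 and Notch4 were dim. Notch1, the receptor that T-cell commitment depends on, had log2 values of 10.50, 10.41 and 10.45 in IkL/L cells, against 10.86, 10.90 and 10.84 in WT cells. The IkL/L values lay close together below all WT values, and the gap between the groups, 0.34, was larger than the range within either group. The difference was -0.41 (95% interval -0.62 to -0.21), a 1.33-fold lower level, and it did not pass (adjusted p = 0.122 in limma). Notch2, the other receptor above the array medians, had 10.29 on each IkL/L array, against 10.35, 10.61 and 10.23 on the WT arrays. Its WT values lay on both sides of the IkL/L values, and the difference was -0.10 (interval -0.37 to 0.17). Notch3, which is itself induced by Notch in thymocytes, had 4.26, 4.39 and 4.26 in IkL/L cells, against 4.34, 4.26 and 4.42 in WT cells. Notch4, best known from endothelium, had 3.94, 4.13 and 4.06 in IkL/L cells, against 4.14, 3.78 and 4.14 in WT cells. The groups overlapped in both of these dim receptors.

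The ligands were near or under the array medians apart from Jag2. Jag2, a Jagged ligand, had 6.78, 7.00 and 6.99 in IkL/L cells, against 7.20, 7.47 and 7.16 in WT cells. All IkL/L values lay below the WT values, with WT 2 the highest array, and the difference of -0.35 (interval -0.63 to -0.07) did not pass (adjusted p = 0.418 in limma). It was -0.26 without WT 2. Dll4, the ligand that thymic epithelium presents to progenitors, averaged 4.73 ± 0.11 in IkL/L cells and 4.80 ± 0.08 in WT cells (SD, n = 3 each). Dll1, Dll3 and Jag1 were also dim, with means of 4.33, 3.50 and 3.56 in IkL/L cells and 4.32, 3.59 and 3.55 in WT cells. Differences of the 4 dim ligands ran from -0.10 to 0.01.

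Among the enzymes that put sugars on the receptors, 3 of 4 differences were below 0, of which that of Rfng turned with an array left out. Lunatic fringe, Lfng, which extends the O-fucose on Notch and so tunes which ligand it answers, had 5.11, 5.27 and 5.34 in IkL/L cells, against 5.49, 5.55 and 5.54 in WT cells. The IkL/L arrays were lower without overlap, at levels not far above the array medians, and the difference of -0.29 (interval -0.52 to -0.06) did not pass (adjusted p = 0.415 in limma). Its paralogue Mfng averaged 9.22 ± 0.39 in IkL/L cells and 9.58 ± 0.21 in WT cells (SD, n = 3 each), a difference of -0.36 with a wide interval (-0.82 to 0.11). IkL/L 3 was the lowest array of Mfng, at 8.78 against 9.38 and 9.51 on IkL/L 1 and 2, the groups overlapped, and the difference was -0.13 without IkL/L 3. Rfng, the third fringe, gave -0.09, and Pofut1, which adds the O-fucose itself, gave 0.06.

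Among the proteases, 4 of 5 differences were above 0, of which those of Adam17 and Ncstn turned with an array left out, and Psen2 was largest. Psen2, a presenilin that forms the catalytic core of gamma-secretase, had 8.16, 8.42 and 8.37 in IkL/L cells, against 7.74, 8.02 and 7.97 in WT cells. The groups did not overlap, and the difference was 0.40 (interval 0.13 to 0.68, adjusted p = 0.308 in limma), a 1.32-fold higher level that did not pass. Of the other subunits, Ncstn, the substrate receptor, gave 0.10, and Psenen, which is needed for presenilin maturation, gave -0.11. The metalloproteinases that make the first cut were close between the groups, with Adam10 at 10.88 ± 0.03 in IkL/L cells and 10.77 ± 0.13 in WT cells and Adam17 at 9.79 ± 0.03 in IkL/L cells and 9.72 ± 0.19 in WT cells (SD, n = 3 each).

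In the nuclear complex the differences ran from -0.20 to 0.03 and no groups were apart. Rbpj, the DNA-binding partner of Notch, averaged 10.37 ± 0.03 in IkL/L cells and 10.45 ± 0.06 in WT cells (SD, n = 3 each), with an interval of -0.29 to 0.13. The coactivator Maml1 gave -0.10, and Maml2 was dim. Kat2b, a histone acetyltransferase recruited to the complex, gave 0.03. Spen, a corepressor that binds RBPJ when Notch is off, averaged 7.65 ± 0.14 in IkL/L cells and 7.85 ± 0.28 in WT cells, a difference of -0.20 (interval -0.56 to 0.15), with WT 1 at 8.16 as the highest array, and it was -0.049 without WT 1.

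Of 8 regulators of turnover and trafficking, 7 differences were below 0, and Dtx4 was above 0 with the largest difference of the 38 members. Of the 7, Numb and Dtx3 turned just above 0 with the arrays centred on their medians. With an array left out, Numb, Dtx3, Dtx1, Itch and Numbl all turned, and only Dtx2 and Fbxw7 of the 7 stayed below 0 throughout. Dtx4, a Deltex-type ubiquitin ligase, had 8.87, 8.55 and 9.29 in IkL/L cells, against 8.06, 8.41 and 8.36 in WT cells. The groups did not overlap but the IkL/L values were widely spread, and the difference of 0.62 (interval 0.18 to 1.07), a 1.54-fold higher level, did not pass (adjusted p = 0.336 in limma). Dtx1, the Deltex gene that Notch induces in lymphocytes, had 5.85, 5.76 and 5.97 in IkL/L cells, against 6.21, 6.01 and 5.65 in WT cells. The groups overlapped in Dtx1, as in Dtx2 (-0.16) and Dtx3 (-0.02). Fbxw7, the ubiquitin ligase subunit that marks intracellular Notch for degradation, had 8.29, 8.30 and 8.34 in IkL/L cells, against 8.44, 8.51 and 8.49 in WT cells. Its values were apart without overlap, by a small step (-0.17, interval -0.37 to 0.03, adjusted p = 0.638 in limma). The endocytic adaptors Numb (-0.0058) and Numbl (-0.05) and the ligase Itch (-0.09), which act against Notch signalling, differed by less than 0.1.

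No target gene passed the test, and Hes5 differed most among the 7. Hes1, the standard target of Notch in blood cells, had 5.11, 5.44 and 4.96 in IkL/L cells, against 5.06, 5.24 and 5.10 in WT cells, which overlap. It was read from 1 probe set, at a level close to the array medians, where a change can be missed. Nrarp, an ankyrin-repeat protein that Notch induces and that feeds back on it, had 7.46, 7.85 and 7.75 in IkL/L cells, against 7.63, 7.78 and 7.57 in WT cells. Its difference was 0.02 (interval -0.27 to 0.31), at a level well above the array medians, and turned to -0.012 with a second quantile normalization. Hes5, a repressor of the same family as Hes1, had 6.00, 6.02 and 5.83 in IkL/L cells, against 6.56, 6.33 and 6.59 in WT cells. All IkL/L values were lower, by 0.31 at the nearest arrays, and the difference of -0.55 (interval -0.81 to -0.29), a 1.46-fold lower level, had the smallest adjusted p of the list without passing (0.114 in limma). The name of this probe set carries the suffix by which the maker marks probes that may also bind other transcripts.

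The other targets were dim or, like Hes1, close to the array medians. Ptcra, the pre-T-cell receptor alpha chain and a Notch target in thymocytes, had 3.90, 3.96 and 4.17 in IkL/L cells, against 4.23, 4.22 and 4.22 in WT cells. These values were apart without overlap, by 0.045 at the nearest arrays, but all lay under the array medians, so that they cannot be told from background. Heyl had 4.91, 4.89 and 4.93 in IkL/L cells, against 4.84, 4.87 and 4.82 in WT cells, which do not overlap but are only 0.024 apart at the nearest arrays (difference 0.07, adjusted p = 0.869 in limma). Hey1 gave 0.01, and Hey2, at means of 2.98 in IkL/L cells and 2.93 in WT cells, was dim.

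**Figure D2:**
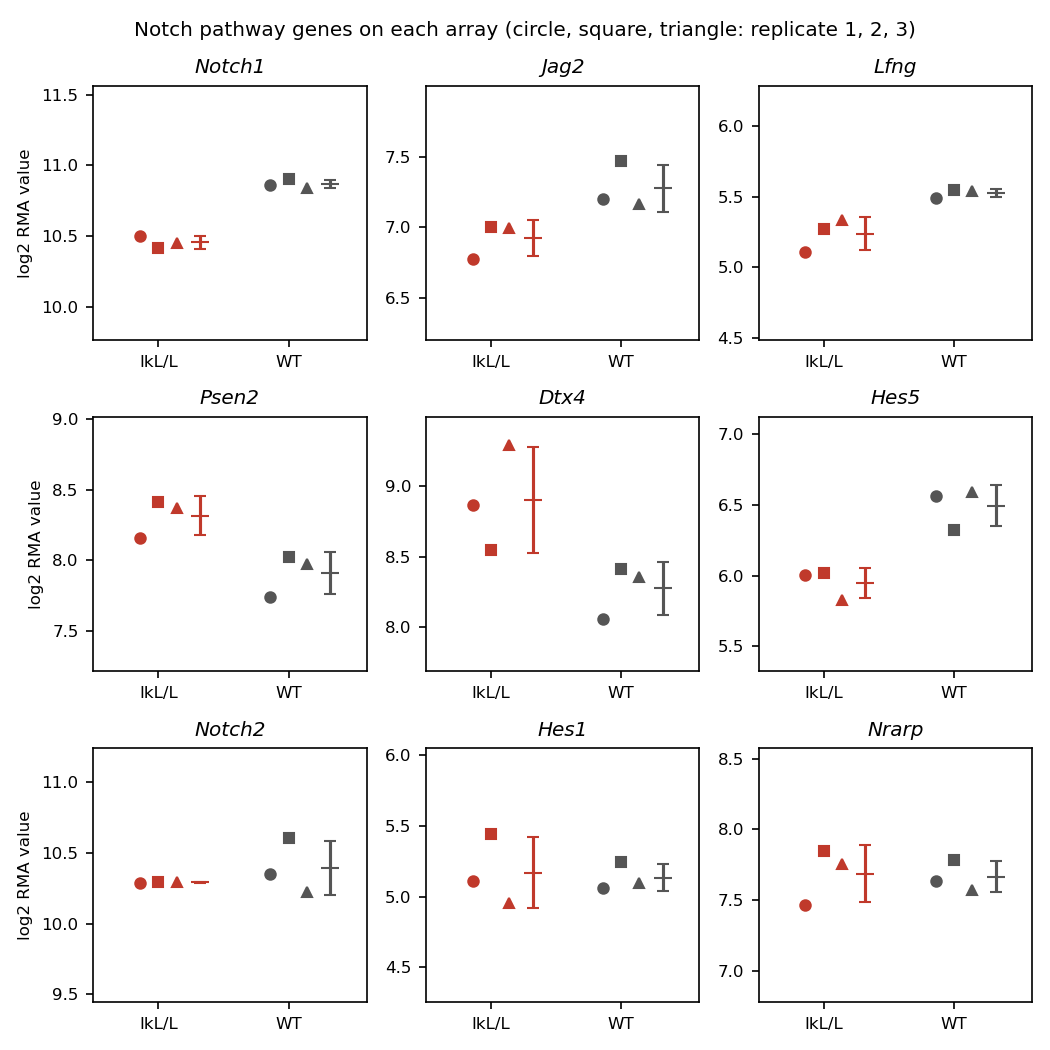
Log2 RMA values (vertical axis) of 9 Notch pathway genes on each IkL/L (red) and WT (grey) array, where a group's mean and SD (n = 3) stand to the right of its points. Every panel spans the same height of 1.8 log2 units and does not start at 0. The groups do not overlap in Notch1, Jag2, Lfng, Psen2, Dtx4 and Hes5, and they overlap in Notch2, Hes1 and Nrarp.

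Since RBPJ and Ikaros share a core motif, the upstream sequences of members were searched for TGGGAA, the core of the RBPJ site, and for GGGAA, on both strands (TTCCCA and TTCCC on the other). The RefSeq table (GRCm38.p6) held 42 windows of 250 bases upstream of a start site for 32 of the 39 members. TGGGAA was present in 12 of these windows (28.6%), against 21.6% of all 32851 windows, and GGGAA, which every TGGGAA contains, in 26 (61.9%), against 56.2%. The windows of Rbpj overlap. The TGGGAA at -65 from its first start and at -205 from its second is the same site, counted in both. With 2 or more copies of TGGGAA there were 4 member windows (9.52%), against 2.77% of all windows. They belong to Hes5, Lfng, Ptcra and one of the start sites of Rbpj. All 4 windows are printed, chosen for their pair of matches. Notch1, Jag2, Nrarp and Dtx1 had neither motif in this window. Both of the Psen2 windows held GGGAA and one held TGGGAA. Dtx4, Hes1, Heyl, Hey1, Mfng, Itch and Dtx3 were not searched. A match in letters is not a measured binding site, and no binding was measured here.

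In the sequences that follow, 5′ to 3′ on the strand of the gene and ending at the base before the start, capitals mark each match to GGGAA, with the preceding T where it makes TGGGAA. The window of Hes5 is chr4:154960673-154960922 (plus strand), with TGGGAA at -226 (on the other strand) and -82, that of Lfng is chr5:140607091-140607340 (plus strand), with matches at -135 (on the other strand) and -108. That of Ptcra is chr17:46763713-46763962 (minus strand), with matches at -84 and -32 and a GGGAA alone at -115 (on the other strand), and that of Rbpj is chr5:53590096-53590345 (plus strand), with matches at -149 and -65 (on the other strand) and a GGGAA alone at -131. Positions give the first base of the match, counted back from the start.
Hes5: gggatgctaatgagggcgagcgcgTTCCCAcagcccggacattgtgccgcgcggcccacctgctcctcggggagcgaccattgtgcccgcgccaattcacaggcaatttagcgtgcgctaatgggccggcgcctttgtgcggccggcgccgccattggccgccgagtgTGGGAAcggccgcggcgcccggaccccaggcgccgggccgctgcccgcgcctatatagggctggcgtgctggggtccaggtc
Lfng: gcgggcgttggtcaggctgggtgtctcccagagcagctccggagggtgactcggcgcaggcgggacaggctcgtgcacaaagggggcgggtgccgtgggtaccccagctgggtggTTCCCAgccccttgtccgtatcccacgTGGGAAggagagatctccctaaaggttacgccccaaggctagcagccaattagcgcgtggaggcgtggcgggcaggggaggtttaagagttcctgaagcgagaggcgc
Ptcra: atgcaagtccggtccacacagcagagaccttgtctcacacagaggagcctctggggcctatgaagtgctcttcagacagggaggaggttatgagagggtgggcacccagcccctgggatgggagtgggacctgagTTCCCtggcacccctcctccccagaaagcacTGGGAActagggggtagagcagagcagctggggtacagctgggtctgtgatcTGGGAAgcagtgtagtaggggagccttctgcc
Rbpj: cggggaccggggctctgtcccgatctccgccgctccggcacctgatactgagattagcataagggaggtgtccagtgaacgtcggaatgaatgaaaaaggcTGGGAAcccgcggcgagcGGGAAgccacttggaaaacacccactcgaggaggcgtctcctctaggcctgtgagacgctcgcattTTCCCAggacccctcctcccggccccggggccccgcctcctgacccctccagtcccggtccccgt
Of the 4 genes with a pair of matches, Hes5 and Lfng had an unadjusted p under 0.05 in limma, as did 15.8% of members and 11.2% of all genes. The dimmer probe set of Lfng had the opposite sign (0.09). Ptcra was dim in both groups, and Rbpj gave -0.08 with overlapping values. Of the other members under 0.05, Notch1 and Jag2 had neither motif, Psen2 had no pair in a window, and Dtx4 was not searched. A relation between matches and differences was not tested.

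A gene can be read from several probe sets, which gives a further look at the 6 members with an unadjusted p under 0.05. These read the same samples on the same arrays, so that their agreement is not a separate replicate. Both probe sets of Dtx4 were higher in IkL/L cells without overlap, the dimmer with 7.28, 7.32 and 7.58 in IkL/L cells, against 6.72, 7.19 and 6.68 in WT cells (difference 0.53, adjusted p = 0.327 in limma). Both of Hes5 were lower without overlap, the dimmer with 5.08, 4.97 and 4.77 in IkL/L cells, against 5.43, 5.19 and 5.20 in WT cells (-0.33, adjusted p = 0.447). Both of Notch1 were lower too, the dimmer with 6.05, 5.99 and 6.15 in IkL/L cells, against 6.15, 6.20 and 6.32 in WT cells, at -0.16 (adjusted p = 0.714). The dimmer probe set of Jag2 gave -0.24 with overlapping groups. In Lfng and Psen2 the dimmer probe set had the opposite sign, 0.09 for Lfng where both groups were dim, and -0.16 for Psen2. The mean over a gene's probe sets gave -0.10 for Lfng and 0.12 for Psen2. Over the list, 26 members had more than 1 probe set, and 13 of the 38 further probe sets, in 12 members, had the opposite sign. None of these 38 passed in limma, where 0.557% of all probe sets did, and 3 had an unadjusted p under 0.05, those of Dtx4 and Hes5 and one of Heyl (0.32, dim in both groups).

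**Figure D3:**
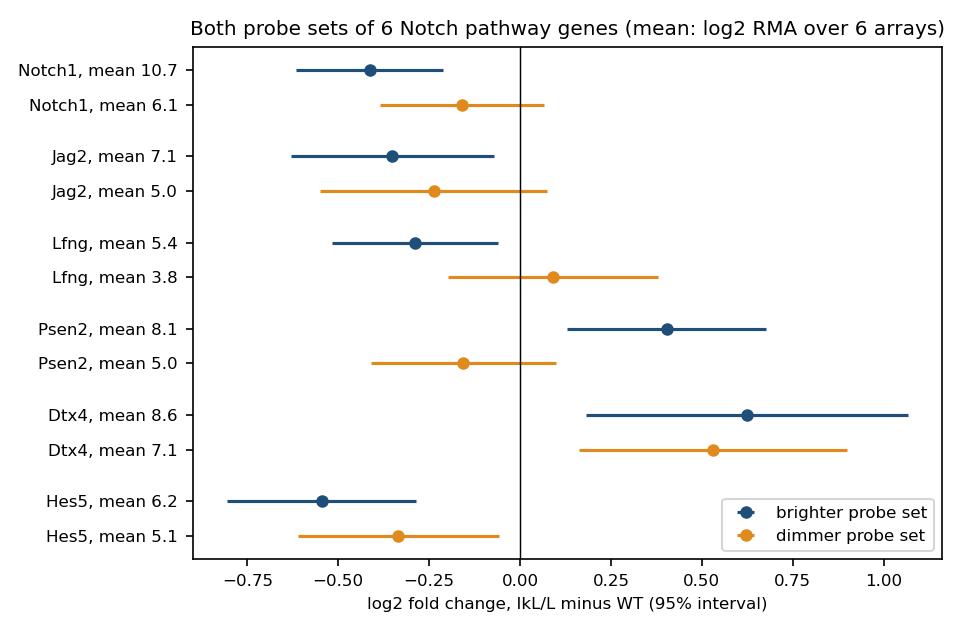
Difference in log2 level between IkL/L and WT cells, as IkL/L minus WT, on the horizontal axis, by the brighter (blue) and the dimmer (orange) probe set of 6 Notch pathway genes, with bars for the 95% interval from limma and the mean level over 6 arrays beside the name. The signs match in Notch1, Jag2, Dtx4 and Hes5 and differ in Lfng and Psen2.

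In these 6 members the groups do not overlap, so leaving out an array could not turn the sign, and only the size could move. With each array left out in turn, Notch1 ran from -0.44 to -0.39, Hes5 from -0.63 to -0.49 and Psen2 from 0.32 to 0.48. Jag2 ran from -0.41 to -0.26 and Lfng from -0.34 to -0.22. Dtx4 moved most, with 0.43 without IkL/L 3 and 0.80 without IkL/L 2. None of the 6 passed in any of these fits, in which 1 group has 2 arrays, and the smallest adjusted p was 0.0962, for Hes5.

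**Figure D4:**
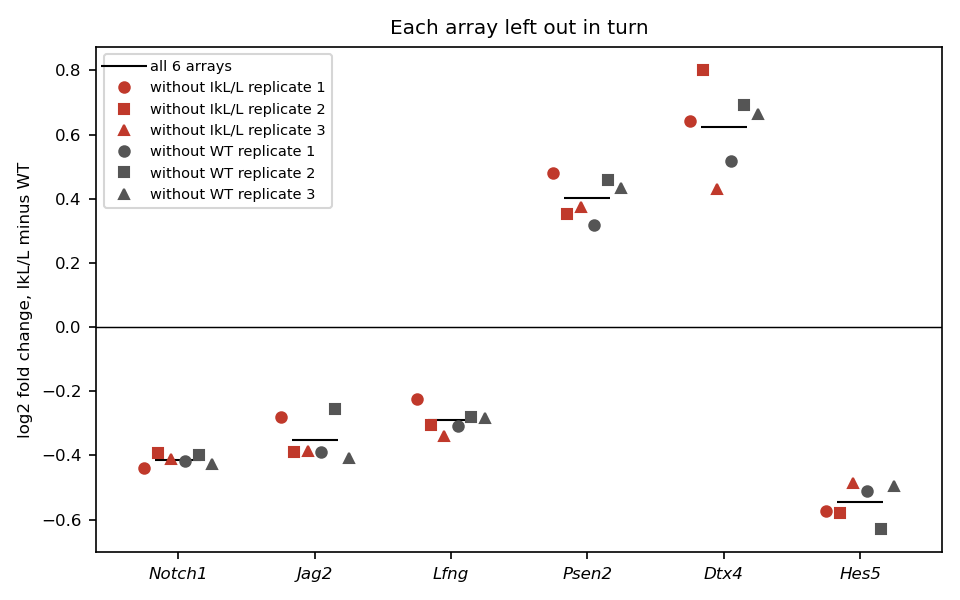
Log2 fold change, IkL/L minus WT (vertical axis), of 6 Notch pathway genes with all 6 arrays (black line) and with each IkL/L (red) or WT (grey) array left out in turn. As the groups do not overlap in these genes, no point could cross 0, and Dtx4 has the widest range.

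Further genes of the pathway were read in the same way. Other components included the Mind bomb ligases that act on ligands, the Aph1 subunits of gamma-secretase and corepressors of the RBPJ complex. Of the 32 that could be read 0 were called, against 0.989% of all genes. The unadjusted p was under 0.05 in 2, both lower in IkL/L cells, against 11.2% of all genes (5.35% lower). Ep300, a histone acetyltransferase that Mastermind recruits, had 9.41, 9.28 and 9.33 in IkL/L cells, against 9.79, 9.74 and 9.60 in WT cells (-0.37, adjusted p = 0.237 in limma). Tle4, a Groucho-type corepressor that Hes proteins use, had 9.39, 9.28 and 9.15 in IkL/L cells, against 9.67, 9.84 and 9.67 in WT cells (-0.45, adjusted p = 0.177). In both genes all IkL/L values lay below the WT values. Groups did not overlap in 1 higher and 2 lower components, against 7.62% and 9.59% of all genes. The median over these 32 was -0.05, and the 4 other Hes genes, none of which was called, ran from -0.18 to -0.00025. Of 6 T-cell genes known as Notch targets 0 were called. Trib2, a pseudokinase that is induced by Notch in leukaemia, had 7.04, 7.38 and 6.24 in IkL/L cells, against 6.12, 5.95 and 6.35 in WT cells (0.75, adjusted p = 0.445), with IkL/L 3 inside the range of the WT arrays. The 4 genes that the study named as activated by Notch and that could be read here were all dim in both groups and ran from -0.14 to 0.20.

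Markers of cell types moved between the groups beside these values, and their part in the Notch results was not tested. Over all genes, 0.748% were called higher and 0.242% lower. Of 6 LSK markers 0 were called, and the median difference was -0.024. Kit and Cd34 had means of 11.24 and 12.14 in IkL/L cells and 11.37 and 12.22 in WT cells. Flt3, which marks lymphoid-primed progenitors, averaged 9.80 ± 0.24 in IkL/L cells and 10.69 ± 0.34 in WT cells (SD, n = 3 each, adjusted p = 0.132 in limma). Slamf1 (0.058), Meis1 (0.031) and Gata2 (0.30) went the other way, with overlapping groups in Slamf1 and Meis1 and none in Gata2. Of 6 megakaryocyte markers 1, Vwf, was called higher, the median difference was 0.50, and their mean log2 level ran from 7.96 to 8.37 on the IkL/L arrays and from 7.19 to 7.83 on the WT arrays. Of 8 endothelial markers 1, Cdh5, was called higher. Cdh5 (2.50) and Tie1 (1.22) made up most of the difference of the list, whose other 6 markers gave 0.0058 to 0.24 and whose median was 0.088, with mean log2 levels of 5.98 to 6.20 on the IkL/L arrays and 5.29 to 5.71 on the WT arrays. Of 7 B-cell markers 2, Ms4a1 (2.38) and Vpreb1 (1.38), were called higher. Pax5 (-0.22) and Ebf1 (-0.23, dim in both groups), transcription factors of the B lineage, lay lower and were not called, and the mean log2 level of the list was 5.70 to 6.05 on the IkL/L arrays and 5.17 to 5.30 on the WT arrays. The 8 stromal markers had 5.37 to 5.53 on the IkL/L arrays and 5.64 to 6.60 on the WT arrays, with none called. The 9 markers of thymocytes and T cells, of which 5 were dim in both groups, had 4.76 to 4.78 on the IkL/L arrays and 4.75 to 4.88 on the WT arrays. No marker of plasmacytoid dendritic cells (6 read), of neutrophils and macrophages (7) or of erythroid cells (4) was called, and the erythroid level was 7.22 to 7.41 on the IkL/L arrays and 6.84 to 6.91 on the WT arrays.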

How the data were processed

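Gene expression in sorted LSK cells was measured on 6 Affymetrix mouse arrays, 1 per sample. The authors deposited log2 values made by RMA (background correction, quantile normalization and summary by probe set), for which the submitters' processing notes name RMA and R 2.8. The methods state that the LSK arrays were normalized with thymocyte arrays, and the values do not show whether these come from that run. The number of arrays limits the precision, with a median half-width of 0.27 log2 units for the 95% interval of a member.

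All 45037 probe sets were fitted with limma 3.58.1 (R 4.3.3; lmFit and eBayes, genotype as the only term, two-sided), with Benjamini-Hochberg adjustment and a threshold of 0.05. Probe sets were assigned to genes by the platform annotation (34945 with 1 gene, 932 with several, 9160 not listed), and symbols were updated by Entrez ID for 34741 of them. A gene was read from its brightest single-gene probe set. All 39 members were named, with values on every array for receptors, for Hes1, Nrarp, Dtx1 and Ptcra, and for members whose groups did not overlap or with an unadjusted p under 0.05. The members, the gene and marker lists and the tests were chosen with earlier results of these data known. The fit was tested on simulated data. Replicate numbers were given to samples of both genotypes, and nothing in the labels says that they pair samples. Alternatives were another normalization, centring, filters on low values, other moderation, array weights, the replicate number as a block, each array left out, and the mean over a gene's probe sets.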

Additional observations from a re-analysis of the deposited data

How the results depend on the processing

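No Notch pathway gene was called in limma under any of the 14 alternatives, among the 38 members or the 29 and 22 left by the filters on low values, and at an unadjusted p under 0.05 there were 1 to 2 higher and 2 to 5 lower members. The smallest adjusted p of a member over these alternatives was 0.0596 in limma, for Hes5. With the replicate number as a block, 0 of 38 members were called, and 143 probe sets were called in place of 251. Same-numbered samples correlated at 0.0084, -0.11 and 0.079 in their deviations, inside the range of the other pairs (-0.13 to 0.12). With 3 arrays per group, such values cannot decide whether samples were paired. Ikzf1 was not called with the block (adjusted p = 0.118). Calls over all probe sets ran from 57 without WT 1 to 287 without WT 3 (67 without IkL/L 1, 142 without IkL/L 2 and 143 without WT 2), and 317 of 18193 genes were called on the mean of their probe sets.

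The median of -0.05 was -0.081 for probe sets at or above the median level and -0.091 for a mean of at least 6, and with an array left out it ran from -0.108 to -0.015. Of the 38 members 20 kept their sign throughout, and the members that turned had differences of 0.10 or less in size. The 20 include the 6 with an unadjusted p under 0.05. As the groups of these 6 do not overlap, leaving out an array could not turn their sign. Array weights turned Notch4 to -0.047, Maml2 to 0.024, Numb to 0.015 and Nrarp to -0.014. Centring on the medians turned Numb to 0.011 and Dtx3 to 0.0010, the mean over probe sets turned Kat2b to -0.080, and a second quantile normalization turned Nrarp to -0.012. With an array left out, 18 members turned, and their ranges were Dll1 -0.14 to 0.12, Dtx3 -0.22 to 0.088, Notch4 -0.10 to 0.083, Hes1 -0.10 to 0.14, Hey1 -0.046 to 0.093, Nrarp -0.057 to 0.13, Jag1 -0.035 to 0.035, Maml2 -0.12 to 0.068, Rfng -0.20 to 0.016, Adam17 -0.033 to 0.15, Ncstn -0.028 to 0.20, Kat2b -0.0040 to 0.091, Dtx1 -0.25 to 0.031, Notch2 -0.19 to 0.0043, Pofut1 -0.076 to 0.14, Numb -0.11 to 0.10, Numbl -0.10 to 0.019 and Itch -0.15 to 0.027. The cause was not tested. Dim genes are limited by signal over background.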
